A study of Drosophila melanogaster with 9 samples.

Results

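Embryos in which the Jun N-terminal kinase (JNK) pathway had been switched on in the ectoderm were compared with wild-type embryos at dorsal closure, the stage at which the epidermis of both flanks moves over the amnioserosa and fuses along the dorsal midline. The comparison uses 6 of the 9 arrays of the study, the 3 titled as JNK gain of function (GOF) and the 3 titled as wild type (WT), and covers all 10844 genes that a probe set could stand for. WT embryos had the genotype w. GOF embryos had the genotype w;UAS-hepACT/+;69B/+, that is, 1 copy of an activated form of Hemipterous (Hep) under UAS control and 1 copy of the 69B-GAL4 driver, which is active in the ectoderm. WT embryos carried neither insertion, so effects of the driver or of the insertions cannot be told apart from those of activated Hep. The third group, loss of function (LOF), had the genotype y w heprev75/y w hep1 and is used only where its values bear on a GOF result. All 3 genotypes carried w. Egg collections of 2 h developed for another 9 h or so at 25 °C, until stages 13 to 14, and in situ hybridisation for dpp had to place at least 85% of the embryos at these stages. Whole dechorionated embryos were extracted, 3 independent RNA samples were made per group, and each labelling took 2 µg of total RNA. Since whole embryos were measured, fewer cells of a type and less RNA per cell cannot be told apart in any result below.

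The JNK pathway is a kinase relay. Hep phosphorylates the JNK Basket, Basket phosphorylates the Jun and Fos proteins that form the transcription factor AP-1, and AP-1 switches on genes such as puc, which encodes the phosphatase that turns Basket off again. In the embryo the pathway is normally active in the first row of epidermal cells, at the edge facing the amnioserosa, and is required there for dorsal closure. In other settings it is known for its part in wound repair, stress responses and cell death.

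Values are the deposited linear intensities. Group values are means ± SD over n = 3 arrays, and a change is the difference between the group means of log2(value + 1) with its standard error (SE), tested with limma over all 9 arrays and adjusted over 10844 genes by the method of Benjamini and Hochberg. A gene past an adjusted p of 0.05 is called changed. The base with which the authors returned their log values to a linear scale is not stated. The log2 of the values runs from 4.86 to 20.34, past the 16 bits of a scanner, and 239 probe sets exceed the largest 16-bit number of 65535. The natural logarithm of the values runs from 3.37 to 14.1, within 16 bits. The range of the values thus goes with base e, and the sizes given for base 2 are likely too large. Under base e every log2 change below would shrink by the factor 0.693, so folds are given for base 2 and then for base e. Array medians ran from 688 to 709. Across genes, GOF arrays correlated with each other at 0.9922 to 0.9961, WT arrays with each other at 0.9945 to 0.9958 and GOF with WT arrays at 0.9617 to 0.9698. The main probe set of hep read 3567, 2878 and 4044 on the WT arrays and 3403, 3625 and 3099 on the GOF arrays, with overlapping groups (log2 difference -0.04 with SE 0.12, adjusted p = 0.859). The labels do not say whether its probes lie within the transgene, so hep does not check them. puc read 2550, 2016 and 2347 in WT and 6435, 5278 and 6712 in GOF (log2 difference 1.41 with SE 0.12, adjusted p = 2.5e-06, 2.66-fold or 1.97-fold). The 3 GOF arrays all lay above the WT arrays, and the LOF arrays lay below both (1739, 1813 and 1704).

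Activated Hep was followed by changes of level across much of the genome, and the rises reached much further than the falls. Of 10844 genes, 3980 (36.7%) changed, 1801 upward (16.6%) and 2179 downward (20.1%). At least 2-fold changes numbered 698 rises (6.44%) and 197 falls (1.82%), or 355 (3.27%) and 39 (0.36%) under base e. At least 4-fold changes numbered 155 rises (1.43%) and 8 falls (0.0738%), or 45 (0.415%) and 3 (0.0277%) under base e. At least 8-fold changes numbered 38 rises (0.35%) and 3 falls (0.0277%), or 8 (0.0738%) and 0 under base e. Rises of at least 16-fold numbered 13 (0.12%) and such falls 0, or 0 and 0 under base e. The lowest percentile of the log2 changes was -1.15 and the highest 2.26, around a median of -0.04. All 3 GOF arrays lay above all 3 WT arrays for 2128 genes (19.6%) and below them for 2701 genes (24.9%). Against LOF the GOF arrays gave a similar number of calls, 1922 higher (17.7%) and 2101 lower (19.4%), whereas LOF against WT gave 147 higher (1.36%) and 365 lower (3.37%).

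**Figure D1:**
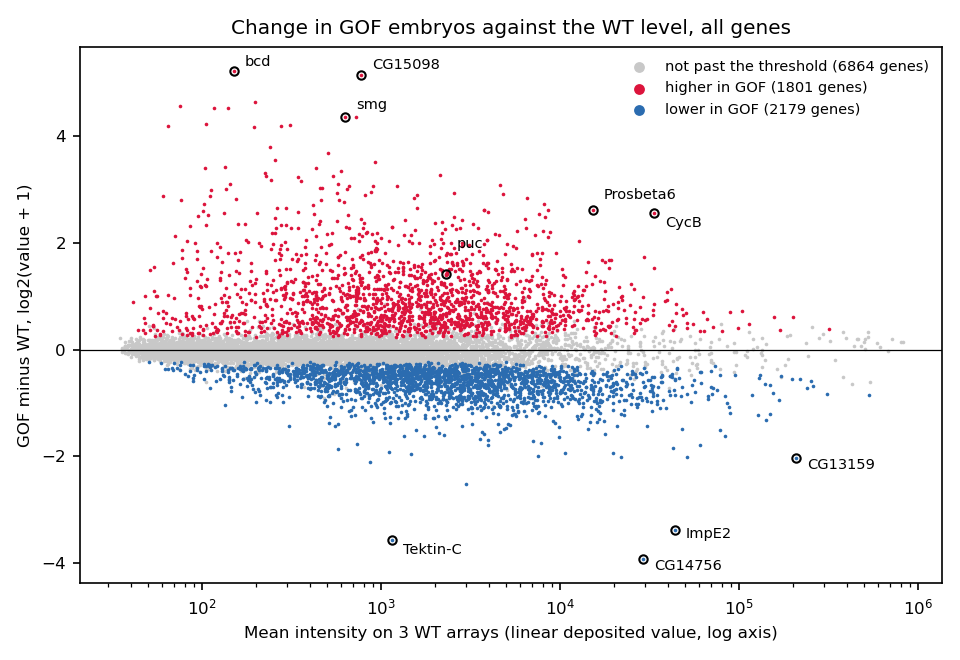
Each point is 1 of 10844 genes, with its mean intensity on the 3 WT arrays on the horizontal log axis and the GOF minus WT difference of log2(value + 1) on the vertical axis; red and blue points passed an adjusted p of 0.05. The rises spread to 5.21, while the 3 deepest falls (CG14756, Tektin-C and ImpE2) stand apart from the rest.

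Falls were mostly shallow and were most frequent among genes that WT embryos expressed highly, while large rises were spread over all levels. With genes ranked by WT intensity and divided into 5 equal bins, the share that fell was, from the dimmest to the brightest bin, 3.32%, 11.2%, 18.5%, 28.1% and 39.3%, and the share that rose was 7.93%, 12.9%, 17.3%, 21.3% and 23.7%. Rises of at least 4-fold numbered 26, 39, 39, 25 and 26 in the same bins, and such falls 0, 0, 2, 1 and 5. The median WT intensity was 797.3 over all genes, 653 for the genes that rose at least 4-fold and 25545.5 for those that fell at least 4-fold. By length of the gene from its first to its last base, the share that rose was 11.9% in the shortest of 5 equal bins, 20.8% in the next to longest and 12.7% in the longest, whereas the share that fell went from 10.2% in the shortest bin to 26.8% in the longest. The Spearman correlation between gene length and change was -0.131 for GOF and 0.119 for LOF, as a description over 10799 genes that share the same arrays. No chromosome arm stood far from the others, with 15.6% to 17.7% of its genes higher and 17.6% to 21.3% lower.

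Several of the largest rises were those of RNAs that the mother places in the egg. bcd, whose RNA at the front of the egg sets up head and thorax, read 130, 195 and 129 on the WT arrays and 1905, 9406 and 9490 on the GOF arrays, a log2 change of 5.21 (SE 0.52, adjusted p = 1.24e-05), or 37.1-fold (12.2-fold under base e). All GOF arrays lay far above WT, but GOF replicate 1 stood well below the other GOF arrays. twe, the Cdc25 phosphatase of meiosis, read 175, 219 and 197 in WT and 3677, 5724 and 5707 in GOF (log2 difference 4.65 with SE 0.16, adjusted p = 3.59e-09). smg encodes an RNA-binding protein that directs the decay of maternal messengers after egg activation. It read 566, 617 and 709 in WT and 10412, 14359 and 14523 in GOF (log2 difference 4.36 with SE 0.14, adjusted p = 3.59e-09, 20.6-fold or 8.14-fold). swa, whose product helps to anchor bcd RNA, read 110, 105 and 101 in WT against 1930, 1614 and 2534 in GOF (log2 difference 4.23 with SE 0.15, adjusted p = 3.59e-09), although its second, dimmer probe set moved from a mean of 77.3 to 98.7 only (log2 change 0.34, adjusted p over probe sets 0.0195).

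Other genes with steep rises serve the first cell divisions, the germ line and the early embryo, but not all do. tej, a Tudor-domain gene that acts in piRNA production, read 153, 138 and 131 in WT and 2515, 2773 and 4908 in GOF (log2 difference 4.52 with SE 0.20, adjusted p = 1.97e-08). dah, needed for the furrows that divide the blastoderm into cells, read 562, 954 and 673 in WT against 14642, 12510 and 17300 in GOF (log2 difference 4.37 with SE 0.17, adjusted p = 7.24e-09). pim, which encodes the securin that acts in sister chromatid separation, read 394, 437 and 477 in WT against 4174, 4172 and 5622 in GOF (log2 difference 3.40 with SE 0.17, adjusted p = 4.39e-08). The groups of all 3 genes were widely separated. msd1, a subunit of the augmin complex that builds the spindle, rose by 3.35 on the log2 scale and the nuclear receptor gene ftz-f1 by 4.20.

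rpk, which encodes a channel subunit of the DEG/ENaC family, read 67, 94 and 65 in WT and 1922, 1681 and 1750 in GOF (log2 difference 4.57 with SE 0.16, adjusted p = 3.59e-09), a rise in which the GOF arrays differed little among themselves. mol, which encodes the maturation factor of the dual oxidase Duox, was higher with both of its probe sets. The set that stands for the gene read 293, 287 and 255 in WT and 5038, 7389 and 3573 in GOF (log2 difference 4.20 with SE 0.20, adjusted p = 3.53e-08), and the other read 110, 120 and 99 against 6500, 6838 and 7302 (log2 change 5.96, adjusted p over probe sets 1.11e-10). Drep2, of the DNA fragmentation factor family, rose by 3.43, STUB1, a ubiquitin ligase that works with chaperones, by 3.31, and rdog by 3.69 on the log2 scale. Among genes with only a number, CG15098 read 758, 856 and 719 in WT and 28466, 30256 and 24364 in GOF (log2 difference 5.15 with SE 0.14, adjusted p = 1.17e-09), which made it one of the brightest of the steep rises. CG7730 rose by 4.53, CG4880 by 4.21 and CG7384 by 4.18. The smallest adjusted p among the rises belonged to CG15098 and CG4586 (log2 change 3.52, adjusted p = 1.17e-09 for each), followed by CG31549 (2.94), Ripalpha (3.25) and smg.

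**Figure D2:**
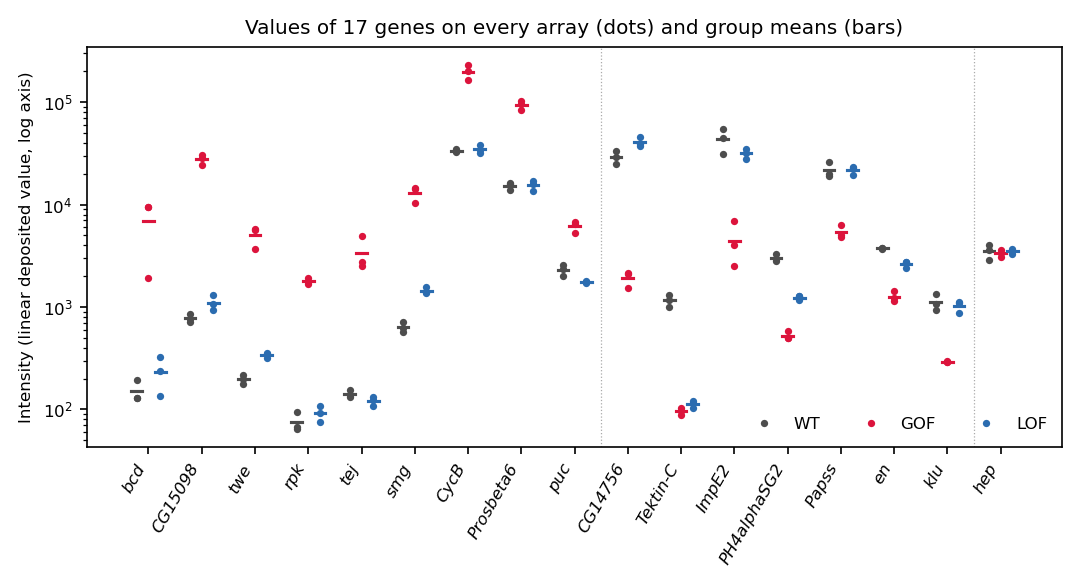
Dots are the deposited intensities of 17 genes on each of the 9 arrays on a log axis, and short bars are the means of the 3 arrays of a group, with 9 risers on the left, 7 fallers in the middle and hep on the right. The GOF dots lie clear of the WT dots for the 16 changed genes and among them for hep, and the GOF dots of bcd are spread from 1905 to 9490.

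Maternal determinants moved in both directions. Of 23 measured maternal determinants, 7 rose (30.4%, against 16.6% of all genes) and 3 fell (13%, against 20.1%), with a median log2 change of 0.04 beside -0.04 for all genes. Besides bcd and swa, the terminal receptor gene tor read 638, 522 and 593 in WT and 2272, 4989 and 5935 in GOF (log2 difference 2.80 with SE 0.27, adjusted p = 8.77e-06), and osk, which organises the pole plasm, read 94, 115 and 108 in WT against 217, 241 and 271 in GOF (log2 difference 1.19 with SE 0.11, adjusted p = 4.84e-06). The fallers were gcl, which acts in germ cell formation, with a log2 change of -0.91, the RNA transport gene egl (-0.76) and capu (-0.37), whose call was lost in some of the alternatives. Several determinants with the best known roles did not pass the test, and the following examples were chosen after their values were seen. nanos, the posterior determinant, read 2178 ± 132 in WT and 2239 ± 35.5 in GOF (difference 0.04, adjusted p = 0.811), vas read 118 ± 8.66 and 107 ± 11.6 (-0.14, adjusted p = 0.389), and exu read 721 ± 53.6 and 648 ± 80.6 (-0.16, adjusted p = 0.325).

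The genes of egg activation and of maternal messenger decay also moved both ways. Of 13 measured, 5 rose (38.5%, against 16.6% of all genes) and 3 fell (23.1%, near the 20.1% of all genes), with a median of 0.12. plu, a part of the kinase complex that controls the first mitoses, read 94, 92 and 98 in WT and 488, 609 and 535 in GOF (log2 difference 2.51 with SE 0.10, adjusted p = 5.54e-09). sra, the calcineurin regulator needed for egg activation, read 2396, 2308 and 2114 in WT against 9003, 12198 and 11637 in GOF (log2 difference 2.26 with SE 0.13, adjusted p = 1.69e-07). wisp, the poly(A) polymerase that activates maternal messengers, read 102, 105 and 101 in WT against 321, 1026 and 977 in GOF (log2 difference 2.73 with SE 0.34, adjusted p = 6.12e-05), again with GOF replicate 1 lowest. The translational repressor gene me31B rose by 1.28. The 3 fallers were Not3 (log2 change -0.83) and Pop2 (-0.64), both of the deadenylase complex that shortens poly(A) tails, and cort (-0.40).

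piRNA genes, which silence transposons in the germ line, rose for 14 of 23 members (60.9%) and fell for 0, with a median log2 change of 0.62. mael read 948, 867 and 811 in WT and 5359, 8202 and 6952 in GOF (log2 difference 2.95 with SE 0.14, adjusted p = 2.86e-08), squ read 189, 209 and 211 in WT against 942, 1448 and 1279 in GOF (log2 difference 2.56 with SE 0.14, adjusted p = 8.12e-08), and BoYb read 83, 64 and 64 in WT against 236, 345 and 357 in GOF (log2 difference 2.12 with SE 0.16, adjusted p = 1.23e-06). All 3 were at least 4-fold higher in GOF under base 2, with no overlap between groups. The list is dim, with a median WT intensity of 150.3, and with the 40% of genes of lowest mean left out, the number of risers was 5. Blastoderm cellularisation genes rose for 7 of 14 members and fell for 1, with a median of 0.39. Beside dah, slam, which brings membrane to the furrows, read 1493, 1343 and 1636 in WT and 4676, 7168 and 6341 in GOF (log2 difference 2.01 with SE 0.14, adjusted p = 8.03e-07). nuf rose with 1 probe set (0.90), while its other set read 2000.3 on average in WT and 1845 in GOF (adjusted p over probe sets 0.527).

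Among the zygotic patterning genes that follow the maternal determinants, only falls passed the test. Of 21 gap, pair-rule and germ-layer genes, 0 rose and 13 fell (61.9%, against 20.1% of all genes), with a median of -0.50. opa, a pair-rule gene with later roles in the gut, read 1294, 1166 and 1599 in WT and 438, 412 and 458 in GOF (log2 difference -1.62 with SE 0.11, adjusted p = 7.28e-07). sna, a repressor gene of mesoderm and neuroblasts, read 28355, 24962 and 27832 in WT against 14903, 12372 and 11544 in GOF (log2 difference -1.07 with SE 0.11, adjusted p = 1.62e-05). Kr and odd had log2 changes of -1.06 and -0.87. All 4 are also expressed in tissues of the older embryo.

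The marker lists for eggs, early embryos and the germ line share most of their risers with the genes described above, so their sums are a description and no independent evidence. Over the list of 11 markers of eggs or embryos before gastrulation, 6 were higher in GOF and 0 lower, and their summed intensity was 8661 to 9048 on the WT arrays, 27821 to 43491 on the GOF arrays and 10140 to 11849 on the LOF arrays. Of 5 germ-line markers, 4 were higher and 0 lower, with sums of 3240 to 3833 in WT, 14104 to 17936 in GOF and 3878 to 4105 in LOF. Of 9 markers of adult follicle cells, 0 changed, with sums of 15731 to 17061 in WT and 16727 to 17425 in GOF. No marker of these lists was at 0 in any group, but the lowest value of any probe set was 29, so this does not show that a marker was detected. The part of embryos or germ cells of another stage in the rises was not tested.

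GOF replicate 1 was the lowest of the GOF arrays for 476 of the 698 genes that rose at least 2-fold (68.2%), against 30.4% of all genes, and GOF replicate 3 was the highest for 54.4%. Their median log2 difference from the WT mean was 1.29 on replicate 1, 1.52 on replicate 2 and 1.58 on replicate 3. Among the fallers of at least 2-fold each GOF array was the lowest for 28.9% to 39.1% of the genes, and GOF replicate 3 was the highest, that is, nearest to WT, for 53.3%, against 34.9% of all genes. The changed genes with the largest spread among GOF arrays were bcd, Ppa, Osi6, wisp and egh. Ppa read 3763, 4519 and 1255 and egh 2320, 3620 and 8203 on the 3 GOF arrays, and both calls were lost when single WT arrays were left out (adjusted p of 0.0995 for Ppa and of 0.07 for egh without WT replicate 1). Without GOF replicate 1, 784 genes rose at least 2-fold, and without replicate 3, 647.

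Most mitotic regulators rose, whereas most enzymes of DNA replication fell. Of 21 mitotic cyclins, kinases and their regulators, 14 rose (66.7%, against 16.6%), 13 of them at least 2-fold, and 2 fell, with a median of 1.23. CycB, a cyclin of the mitotic kinase, read 35330, 32318 and 33245 in WT and 165125, 230477 and 202636 in GOF (log2 difference 2.56 with SE 0.12, adjusted p = 2.86e-08, 5.88-fold or 3.41-fold), which placed it among the brightest genes that rose. CycB3 read 27319, 25358 and 36177 in WT against 83941, 98529 and 110603 in GOF (log2 difference 1.73 with SE 0.14, adjusted p = 2.34e-06). The spindle checkpoint gene mad2 read 1597, 1649 and 1547 in WT against 12398, 13018 and 10377 in GOF (log2 difference 2.89 with SE 0.10, adjusted p = 3.59e-09). In each case every GOF array lay above every WT array. Without WT replicate 2 the fallers numbered 4. The 2 fallers of the full comparison were Cdk2, a kinase of S phase (-0.88), and fzr, which acts in the exit from the cycle (-0.66).

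Of 31 measured genes of DNA replication, 9 rose and 17 fell (54.8%, against 20.1% of all genes), with a median of -0.38. Mcm10, a replication fork protein, read 142, 125 and 129 in WT and 427, 984 and 1150 in GOF (log2 difference 2.57 with SE 0.29, adjusted p = 3.47e-05), again with GOF replicate 1 lowest of its group. dup, which encodes the licensing factor Cdt1, rose by 2.12, the clamp loader subunit gene RfC38 by 1.81 and Orc1 of the origin recognition complex by 0.88. The helicase subunit genes Mcm3 and dpa had log2 changes of -0.74 and -0.67, the flap endonuclease gene Fen1 of -0.79 and the primase subunit gene Prim2 of -0.76. Orc1 was higher, and Mcm3 lower, on all 3 GOF arrays than on any WT array.

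Among tubulins and spindle motors, 7 of 18 rose and 2 fell, with a median of 0.03. The risers included the mitotic kinesins Klp61F (log2 change 1.42) and ncd (1.18), the spindle protein gene mars (1.13) and betaTub56D (1.01), the main beta-tubulin of the early embryo. msps, a microtubule polymerase gene, was lower (-0.60), and the call of nod was not stable. Without WT replicate 2 the risers numbered 4 in place of 7.

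The proteasome list split along the structure of the particle. Of 39 measured genes, 13 rose (33.3%, against 16.6% of all genes) and 9 fell (23.1%, near the 20.1% of all genes), with a median of 0.02. Grouped by part of the particle, a grouping made after the values were seen, all 12 of the 12 measured somatic subunits of the catalytic core were higher in GOF, with a median of 2.23. Prosbeta6 read 16200, 15899 and 13818 in WT and 96875, 102940 and 83801 in GOF (log2 difference 2.63 with SE 0.12, adjusted p = 1.74e-08, 6.17-fold or 3.53-fold). Prosbeta5, the subunit with chymotrypsin-like activity, read 8803, 8730 and 8712 in WT against 39985, 40992 and 39276 in GOF (log2 difference 2.20 with SE 0.08, adjusted p = 5.37e-09). Prosalpha5 and Prosbeta3 had log2 changes of 3.28 and 3.09, the steepest of the list, and Prosbeta7 of 2.55. The smallest core change was that of Prosalpha2, which falls outside the naming rule and was picked after its value was seen (0.36, adjusted p = 0.0458). A dimmer second probe set of Prosbeta6 moved from a mean of 535.7 to 675.0 only (adjusted p over probe sets 0.142).

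The regulatory cap, which binds ubiquitin and unfolds substrates, did not follow the core. Of 12 non-ATPase cap genes, 2 of them with a duplicate name, 0 rose and 8 fell, with a median of -0.46. Rpn13, a ubiquitin receptor, read 18970, 14374 and 17090 in WT and 10400, 9785 and 10209 in GOF (log2 difference -0.72 with SE 0.10, adjusted p = 0.000189), with every GOF array below WT. Rpn11, the deubiquitinase of the cap, had a log2 change of -0.70, Rpn2 of -0.69 and Rpn3 of -0.54. Of 4 ATPase subunits 1 rose and 1 fell. Both were named after their values were seen, Rpt4 at 1.67 and Rpt5 at -0.48. Of 9 core genes with a testis-specific or duplicate name, 0 changed, with a median of -0.03.

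**Figure D3:**
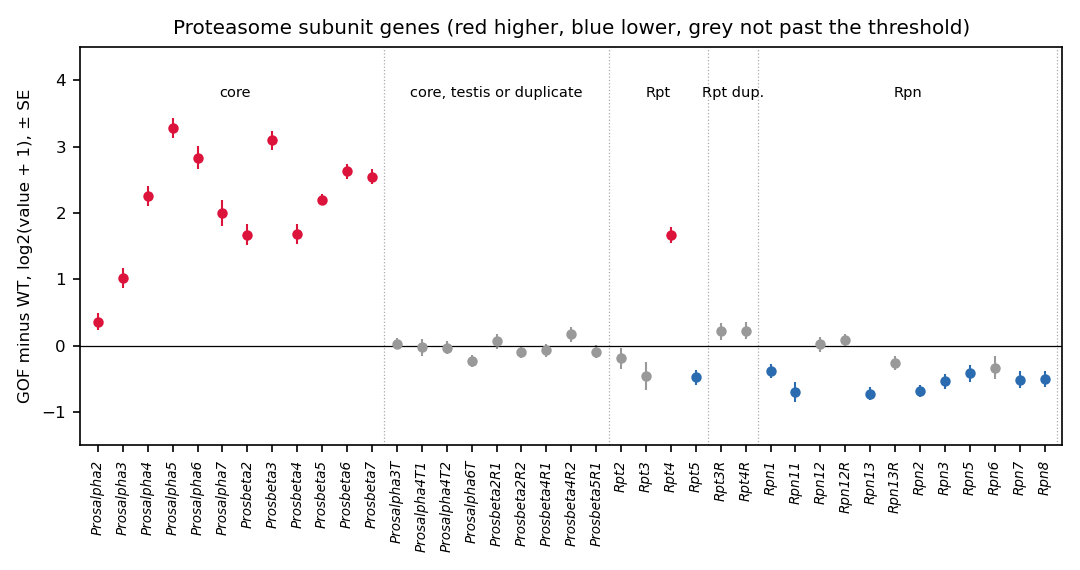
Points are GOF minus WT differences of log2(value + 1) of 39 proteasome genes with bars of 1 SE, grouped by part of the particle. The 12 somatic core subunits lie above 0, the 9 testis or duplicate core genes lie near 0, and the non-ATPase cap genes lie near or below 0.

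Other basic machines of the cell shifted less. Of 37 cytosolic ribosomal protein genes 3 rose and 0 fell, with a median of 0.20, and the risers included RpS28b (0.38). The count of risers was 7 after cyclic loess. Of 66 mitochondrial ribosomal protein genes 9 rose (13.6%, against 16.6% of all genes), led by mRpS9 (1.56). Another 22 fell (33.3%, against 20.1%), among them bonsai (-0.94). Without WT replicate 1 the fallers numbered 14. Of 68 genes of oxidative phosphorylation 11 rose and 6 fell, shares of 16.2% and 8.82% that lie below or near those of all genes. ATPsynbeta, the catalytic subunit of the ATP synthase, had a log2 change of -1.05, whereas the complex I gene ND-42 (0.92) and Cyt-c1 (0.86) rose.

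Cytosolic and mitochondrial aminoacyl-tRNA synthetases, which charge tRNAs, fell for 16 of 30 members (53.3%) and rose for 7, with a median of -0.27. IleRS read 2479, 2438 and 2483 in WT and 5795, 6523 and 9329 in GOF (log2 difference 1.52 with SE 0.16, adjusted p = 1.47e-05) and ThrRS rose by 0.86, whereas PheRS-m (-0.97), GluProRS (-0.91) and TrpRS (-0.90) fell. Without GOF replicate 1 the fallers numbered 10. Translation initiation factors rose for 10 and fell for 11 of 37 members (27% and 29.7%, against 16.6% and 20.1% of all genes). Examples were eIF3l (0.85) and eIF2Bgamma (-0.78). Without GOF replicate 2 the counts of initiation factors were 6 and 7.

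Of 29 subunits of the vacuolar proton pump 7 rose (24.1%, against 16.6% of all genes) and 5 fell (17.2%, against 20.1%). The membrane subunit genes Vha100-1 (1.05) and Vha100-4 (-0.85) moved in opposite directions. In the insulin and TOR list of 18 genes 2 rose (11.1%, against 16.6%) and 4 fell (22.2%, near the 20.1% of all genes). Among the fallers were the kinase genes Akt (-0.86) and mTor (-0.61) and the TORC2 gene rictor (-0.96). Both genes of the TOR-inhibiting complex, Tsc1 (1.22) and gig (0.99), rose. Genes of the Polycomb and trithorax groups, which keep the expression state of developmental genes, rose for 6 and fell for 10 of 22 members (45.5%), with a median of -0.44. Caf1-55 (1.64) and ash2 (1.65) rose, and Su(z)12 (-0.87) and Trl (-0.76) fell.

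Several defence and detoxification genes rose, above all glutathione S-transferases, which couple reactive compounds to glutathione. Of 34 measured, 14 rose (41.2%, against 16.6%) and 1 fell, with a median of 0.19. GstS1 read 6948, 6573 and 5613 in WT and 30521, 36168 and 37597 in GOF (log2 difference 2.45 with SE 0.11, adjusted p = 2.41e-08, 5.45-fold or 3.24-fold), with widely separate groups. GstO2 rose by 1.82, GstE7 by 1.69 and GstE13 by 1.36 on the log2 scale. The single faller was GstT4 (-0.69), a call that was lost in some alternatives.

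Antioxidant genes rose for 9 of 22 members (40.9%, against 16.6% of all genes) and fell for 1 (4.55%, against 20.1%). ref(2)P, the p62 adaptor that carries ubiquitinated cargo to autophagy, read 2640, 2332 and 2553 in WT and 8389, 14633 and 16189 in GOF (log2 difference 2.33 with SE 0.20, adjusted p = 3.12e-06). dhd, a thioredoxin gene of the egg, read 147, 120 and 211 in WT against 554, 1235 and 727 in GOF (log2 difference 2.35 with SE 0.27, adjusted p = 3.17e-05), and it was also higher in LOF than in WT (494, 409 and 372, log2 change 1.44, adjusted p = 0.0121). The ferritin gene Fer1HCH rose by 0.72. Duox itself, the oxidase whose maturation factor mol had risen, was lower in GOF (-0.80).

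Cytochrome P450 genes showed no common direction, with 9 higher and 10 lower of 75 (12% and 13.3%, both below the shares of all genes). Cyp6a22 rose by 2.18 and Cyp4p2 by 1.31. Cyp6d5, one of the largest named falls, read 46534, 42161 and 38947 in WT and 9822, 11317 and 15153 in GOF (log2 difference -1.83 with SE 0.16, adjusted p = 3.56e-06). Cyp18a1, which inactivates ecdysone, had a log2 change of -1.43. Of 13 heat shock protein genes 1 rose (7.69%, against 16.6% of all genes) and 4 fell (30.8%, against 20.1%). The riser was Hsc70-2 (0.85). Among the fallers were the mitochondrial chaperone genes Hsc70-5 (-0.89) and Hsp60A (-0.75) and the small heat shock gene Hsp27 (-0.63).

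In the immunity list 8 of 23 genes rose (34.8%, against 16.6% of all genes) and 4 fell (17.4%, against 20.1%). cact, the inhibitor of the Toll pathway factors Dorsal and Dif and a maternal product, read 13714, 12285 and 12289 in WT and 42546, 54433 and 62884 in GOF (log2 difference 2.05 with SE 0.13, adjusted p = 2.93e-07). The Toll ligand gene spz (1.62), the kinase gene pll (1.19) and key of the Imd pathway (1.25) rose, while SPE, the protease that processes Spz, fell by 1.10. The number of fallers was 1 or 2 under several alternatives. Among 26 serpins, protease inhibitors, 4 rose (15.4%), among them Spn88Ea (1.58), and 3 fell (11.5%), among them Spn100A (-1.54). Both shares lie below those of all genes (16.6% and 20.1%).

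Of 15 cell death genes 5 rose (33.3%, against 16.6% of all genes) and 4 fell (26.7%, against 20.1%), with a median of -0.07. Dronc, the initiator caspase, read 2688, 2358 and 2765 in WT and 7316, 7885 and 6512 in GOF (log2 difference 1.47 with SE 0.13, adjusted p = 4.34e-06), and p53 (0.99) and the effector caspase gene Dcp-1 (0.56) rose less steeply. grim, one of the activators of death, had a log2 change of -0.81, and Debcl of the Bcl-2 family of -0.98. Without WT replicate 1 the risers numbered 3.

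Within the JNK cascade itself 6 of 19 genes rose (31.6%, against 16.6% of all genes) and 8 fell (42.1%, against 20.1%). Their median log2 change was -0.04, the same as over all genes. After puc the clearest riser was mbt, a kinase of the PAK family (log2 difference 1.01 with SE 0.10, adjusted p = 7.62e-06). Jra, which encodes Jun, read 2293, 1955 and 1779 in WT and 3530, 2747 and 3540 in GOF (log2 difference 0.70 with SE 0.14, adjusted p = 0.00144). Every GOF array lay above WT. Traf6 rose by 0.92, whereas Traf4 (-0.76), the kinase gene Shark (-0.79), the scaffold gene POSH (-0.64) and the ligand gene egr (-0.67) fell. Other members did not pass the test, and these examples were chosen after their values were seen. kay, which encodes Fos, read 218 ± 42 in WT and 205 ± 26.3 in GOF (difference -0.08, adjusted p = 0.727). The upstream kinase genes msn (0.11, adjusted p = 0.598) and slpr (0.00, adjusted p = 0.992) also missed the threshold.

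Genes that earlier work had linked to AP-1 or JNK did not move together. Of 19 measured, 7 rose (36.8%, against 16.6% of all genes) and 6 fell (31.6%, against 20.1%), with a median of 0.10. Beside puc, the focal adhesion gene stck rose by 1.12 and Ets21C, an ETS factor, by 0.39. dpp, the secreted signal made by the leading edge, read 483, 491 and 575 in WT and 626, 619 and 676 in GOF (log2 difference 0.31 with SE 0.09, adjusted p = 0.0191), a call that was lost in some alternatives. scaf, a secreted protease homologue, read 5169, 5432 and 5354 in WT against 6334, 6828 and 6049 with its main probe set (log2 difference 0.27 with SE 0.08, adjusted p = 0.0232) and 1027, 830 and 1163 against 1767, 2117 and 2778 with the other (log2 change 1.13, adjusted p over probe sets 0.000325). The first of these calls also depended on the settings. cher, the filamin gene, read 16826, 17098 and 15029 in WT against 5768, 7141 and 9575 in GOF (log2 difference -1.15 with SE 0.16, adjusted p = 0.000148), and raw (-0.58) and the integrin gene mys (-0.51) were lower as well. Without WT replicate 1 the risers of the list numbered 3.

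The deepest falls were those of CG14756, Tektin-C and ImpE2. CG14756 read 33246, 29503 and 24977 in WT, 1538, 2110 and 2170 in GOF and 37011, 39033 and 45486 in LOF (log2 difference -3.92 with SE 0.15, adjusted p = 5.54e-09, 15.1-fold or 6.58-fold lower). The LOF arrays lay above WT (log2 change 0.47, adjusted p = 0.1), and GOF minus LOF was -4.40 (adjusted p = 4.4e-09). ImpE2, an ecdysone-inducible secreted protein of epithelia, read 55376, 44389 and 31418 in WT and 2494, 4012 and 6879 in GOF (log2 difference -3.38 with SE 0.30, adjusted p = 4.95e-06). The GOF arrays all lay below WT, although the values within both groups spread widely. Papss, which makes the sulphate donor for sulphation of secreted sugars, read 19098, 26345 and 20104 in WT against 4809, 5072 and 6281 in GOF (log2 difference -2.02 with SE 0.14, adjusted p = 7.34e-07).

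Further falls concerned transcription factors and cuticle genes. klu, a zinc-finger gene of neural precursors, read 930, 1066 and 1328 in WT and 294, 290 and 289 in GOF (log2 difference -1.91 with SE 0.13, adjusted p = 7.21e-07), with nearly equal values on the GOF arrays. sr, the factor that specifies the tendon cells to which muscles attach, read 8011, 7187 and 8172 in WT against 2192, 2191 and 2625 in GOF (log2 difference -1.74 with SE 0.11, adjusted p = 2.2e-07). Gasp, a chitin-binding protein of the tracheal lining, read 1660, 1487 and 1295 in WT against 255, 375 and 562 in GOF (log2 difference -1.96 with SE 0.24, adjusted p = 5.57e-05). Hr4, a nuclear receptor of the ecdysone response, fell by 1.93, and Gnpnat, which acts in the synthesis of the chitin building block, by 1.70. Among genes with only a number, CG13159 read 207850, 169875 and 250544 in WT and 51515, 43888 and 56728 in GOF (log2 difference -2.04 with SE 0.14, adjusted p = 6.84e-07), and CG14110, CG9449 and CG12096 fell by 1.94, 1.79 and 1.71. The brightest genes among the falls of at least 2-fold included CG13159, the chitin deacetylase gene verm (-1.22), the gap junction gene Inx3 (-1.18) and Tom (-1.20).

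A few of the deepest falls were shared with LOF embryos, whose comparison uses the same WT arrays. Tektin-C, a gene of sperm tail microtubules, read 1158, 997 and 1324 in WT, 88, 97 and 104 in GOF and 116, 102 and 121 in LOF (GOF minus WT -3.57, adjusted p = 3.59e-09, LOF minus WT -3.34). GOF and LOF differed by -0.23 (adjusted p = 0.165). mTerf3, of the mitochondrial transcription termination factor family, had log2 changes of -2.11 in GOF and -2.30 in LOF, with a GOF minus LOF difference of 0.19 (adjusted p = 0.165). phu (-1.86 and -1.45) and the cap-binding factor gene eIF4E3 (-1.77 and -1.55) also lay below WT in both groups. PH4alphaSG2, a prolyl hydroxylase of the salivary gland, read 3278, 2924 and 2802 in WT, 587, 494 and 498 in GOF and 1277, 1163 and 1272 in LOF, and the GOF arrays lay below the LOF arrays (GOF minus LOF -1.24, adjusted p = 2.45e-06). Among the risers, smg was also higher in LOF than in WT (1390, 1566 and 1356, log2 change 1.19, adjusted p = 0.00102), at a level far below that in GOF (GOF minus LOF 3.17).

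Most genes of the secretory machinery fell. Of 23 genes of the COPI and COPII coats and of protein import into the endoplasmic reticulum, 18 fell (78.3%, against 20.1% of all genes) and 0 rose, with a median of -0.67. Under base 2, 0 of these falls reached 2-fold. alphaCOP, a coat subunit, read 18188, 14136 and 18285 in WT and 7672, 8320 and 9753 in GOF (log2 difference -0.97 with SE 0.12, adjusted p = 6.92e-05), and its LOF minus WT difference was -0.00. SrpRalpha, the receptor of the signal recognition particle, had a log2 change of -0.81, Srp68 of -0.75 and the cargo receptor gene Tango1 of -0.80. These genes are known for high expression in secreting tissues.

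Salivary gland genes fell for 10 of 13 members and rose for 0, with a median of -0.77. sage, a transcription factor of the gland, read 1004, 1145 and 1008 in WT and 494, 424 and 387 in GOF (log2 difference -1.28 with SE 0.11, adjusted p = 2.61e-06). pip, a sulphotransferase gene, had a log2 change of -1.38. The sum of both salivary gland markers was 3963 to 7168 in WT and 2225 to 3191 in GOF. Tracheal genes fell for 12 of 19 members (63.2%) and rose for 2, with a median of -0.80. Beside Gasp and verm, uif (-1.45) and the patterning gene salm (-1.40) were lower, and heca, which acts in branch fusion cells, was higher (1.96).

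Most segment polarity and septate junction genes were lower in GOF. Of 15 segment polarity genes 10 fell (66.7%) and 2 rose, with a median of -0.53. en, which marks the posterior compartment of each segment, read 3809, 3701 and 3805 in WT and 1433, 1223 and 1134 in GOF (log2 difference -1.58 with SE 0.10, adjusted p = 4.35e-07), with all GOF arrays far below all WT arrays. Its signal gene hh (-1.05), the paired-box gene gsb (-0.82) and the effector gene ci (-0.59) were lower. smo, the signal transducer of Hedgehog, rose by 0.68, as did Axn, a Wingless antagonist (0.69, with 0.56 to 0.93 when single arrays were left out).

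Septate junctions seal the epithelium against diffusion. Of 22 of their genes 16 fell (72.7%) and 3 rose, with a median of -0.68. cora, a band 4.1 protein of the junction, read 20018, 18980 and 20018 in WT and 9245, 7908 and 9993 in GOF (log2 difference -1.13 with SE 0.12, adjusted p = 1.92e-05). The claudin genes kune (-0.94) and pck (-0.91) and Gli (-0.90) were also lower. yrt was higher (0.79), and scrib, a polarity gene, had a log2 change of 1.40 with the set that stands for it and of -0.57 with its other set, so that its direction is not settled.

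Genes of the barrier and of wound repair were few and mixed. Of 15, 3 were higher (20%, near the 16.6% of all genes) and 5 lower (33.3%, against 20.1%). krz, the non-visual beta-arrestin, read 2621, 2331 and 2479 in WT and 6704, 11843 and 12052 in GOF (log2 difference 1.99 with SE 0.19, adjusted p = 9.98e-06). grh, the master gene of the epidermal barrier and of wound repair, had a log2 change of -1.27, and sha, which shapes denticles, of -0.99. The fallers numbered 3 without GOF replicate 2, without WT replicate 1 or 3, and after cyclic loess.

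Genes of chitin, the polymer of the cuticle, fell for 11 of 28 members (39.3%, against 20.1% of all genes) and rose for 4 (14.3%, against 16.6%). The matrix gene obst-A had a log2 change of -1.43 and Cht7 of -0.75. Against this trend Idgf6, a secreted relative of chitinases that binds chitin, read 3648, 4274 and 3408 in WT and 19450, 25170 and 25438 in GOF (log2 difference 2.62 with SE 0.14, adjusted p = 7.44e-08), and Idgf4 rose by 1.22. Of 9 zona pellucida proteins, which tie epithelia to their apical matrix, 4 fell, among them mey (-1.44), neo (-0.85) and pio (-0.74). Of 92 structural cuticle proteins, which are made mostly later, 1 was higher and 4 were lower, at a median WT intensity of 681.

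In the Osiris family, a cluster of epithelial genes that come on late in embryogenesis, 5 of 23 members fell (21.7%, near the 20.1% of all genes), with a median of -0.08. Osi7 read 9920, 9485 and 3273 in WT and 1587, 1611 and 1883 in GOF (log2 difference -1.999 with SE 0.37, adjusted p = 0.00102), and Osi6 read 55020, 72913 and 25712 in WT against 8335, 7521 and 25288 in GOF (log2 difference -2.01 with SE 0.48, adjusted p = 0.00564). WT replicate 3 was the lowest WT array and GOF replicate 3 the highest GOF array for both, and for Osi6 the groups nearly touched. Leaving out single arrays gave Osi6 changes of -2.57 to -1.69. Averaged over the family, the WT arrays themselves differed by 0.02, 0.17 and -0.19 from their mean.

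Signalling genes of the epidermis fell more often than they rose. In the Notch list 10 of 19 fell (52.6%), with a median of -0.57, among them Tom (-1.20) of the Bearded family and the glycosyltransferase gene fng (-1.07). E(spl)m7-HLH, a Notch target, was lower in GOF (-0.98) and in LOF (-0.77), and these groups did not differ past the threshold (-0.21, adjusted p = 0.264). The single riser, H, had opposite changes with its 2 probe sets (1.61 and -1.25). In the EGF receptor and JAK-STAT list 9 of 18 fell, among them the ligand gene spi (-1.02) and Egfr (-0.96), and 4 rose, among them Stat92E (1.10, with 0.85 to 1.35 when single arrays were left out). Ptp61F rose with 1 probe set (1.81) and fell with a dimmer one (-0.93).

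Of 25 genes of Dpp signalling 11 fell (44%, against 20.1% of all genes), for instance the ligand gene gbb (-0.73) and salm. Another 4 rose (16%, near the 16.6% of all genes), for instance the transducer gene Mad (1.01). The risers numbered 1 without GOF replicate 3 or WT replicate 2. Adherens junction and polarity genes rose for 5 and fell for 5 of 21 members (23.8% each, against 16.6% and 20.1% of all genes). aPKC (1.52) and cno (1.44), both needed for polarity and junctions, rose, and hbs (-0.98) and tmod (-1.09) fell. Without WT replicate 3 the fallers numbered 3. Actin regulators rose for 6 and fell for 6 of 24 members (25% each, against 16.6% and 20.1%). The cofilin gene tsr (0.70) was among the risers.

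**Figure D4:**
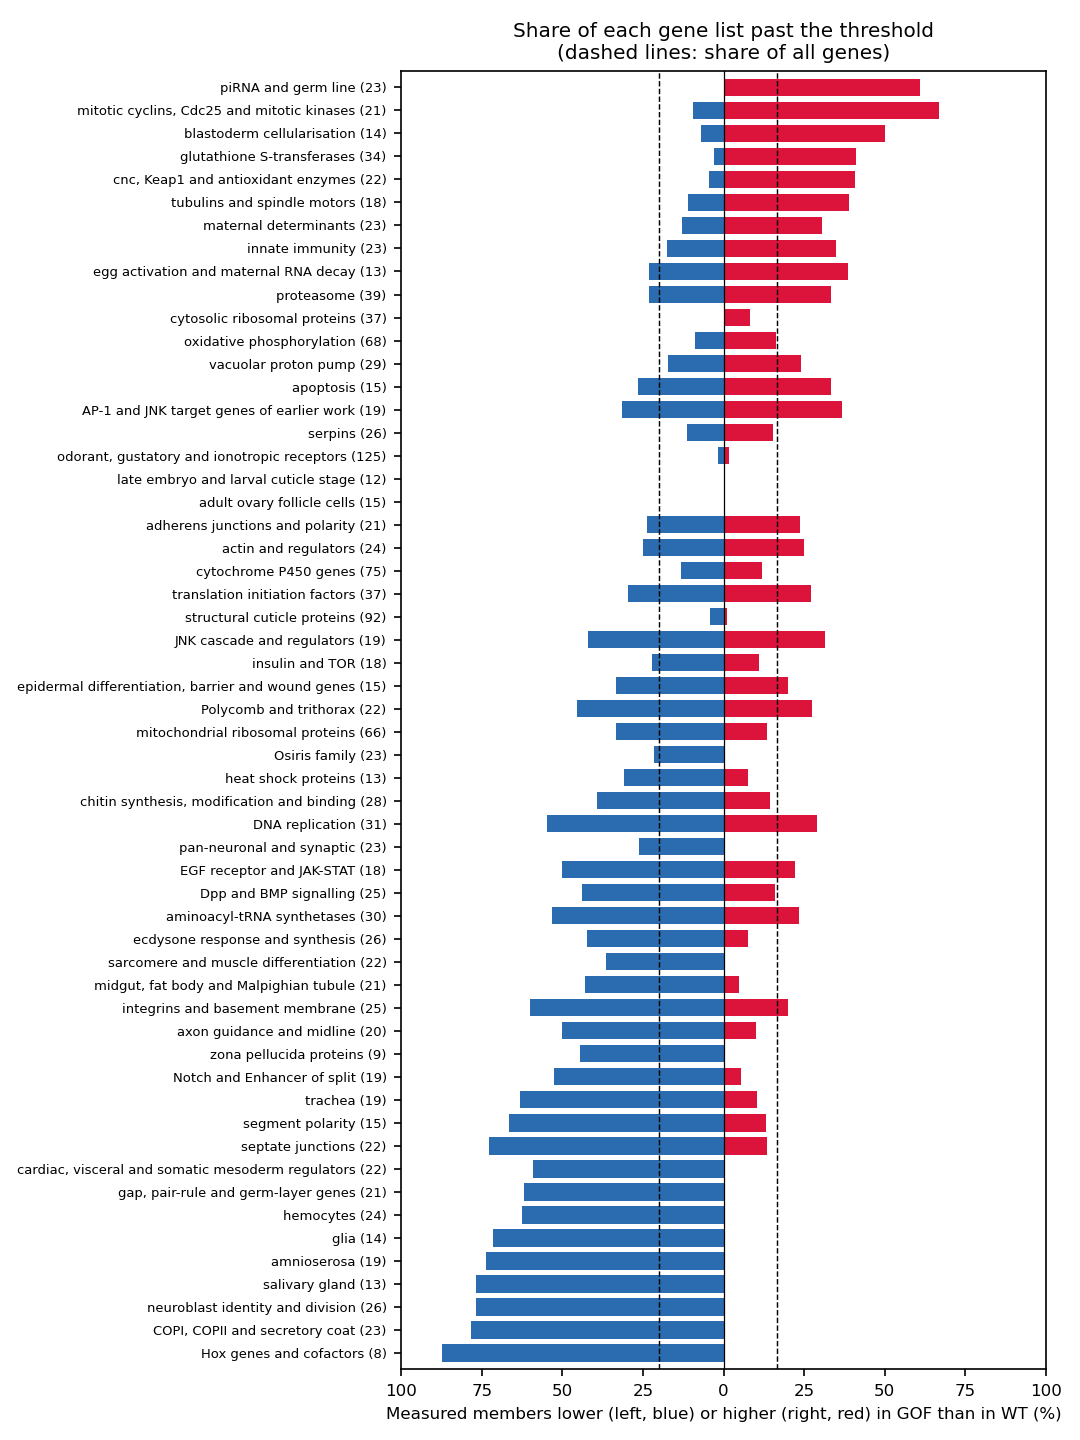
Bars show, for 56 gene lists, the percent of measured members that were higher (red, to the right) or lower (blue, to the left) in GOF than in WT, and dashed lines mark the shares of all genes, 16.6% and 20.1%. Mitotic, piRNA and cellularisation genes reach furthest to the right, and Hox (8 members), secretory coat, neuroblast and salivary gland genes furthest to the left.

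Many listed genes of tissues outside the epidermis were lower as well. Of 19 amnioserosa genes 14 fell (73.7%) and 0 rose, with a median of -0.58. The GATA factor gene grn (-1.26), Kr and LanA of the basement membrane (-0.96) were lower. Ance, the angiotensin-converting enzyme homologue, had log2 changes of -1.09 in GOF and -0.86 in LOF. The summed level of 4 amnioserosa markers was 47180 to 58165 in WT, 25888 to 27538 in GOF and 32903 to 38363 in LOF.

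Blood cell genes fell for 15 of 24 members, with a median of -0.66, among them gcm (-1.12), srp (-0.93), PPO2 of the crystal cells (-0.97) and the matrix gene Ppn (-0.87). The sum of both hemocyte markers was 3989 to 5050 in WT and 2248 to 3109 in GOF, but 10186 to 11807 in LOF. Integrin and basement membrane genes fell for 15 of 25 members (60%) and rose for 5. The risers included intracellular partners of integrins such as stck, but Fak, another intracellular partner, was lower in GOF (-0.68) and in LOF (-0.70). Laminins and collagens, which blood cells and muscle secrete, were among the fallers.

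Genes of neural precursors mostly fell. Of 26 neuroblast genes 20 fell (76.9%) and 0 rose, with a median of -0.70. pros, which ends the self-renewal of neural precursors, read 12287, 15912 and 14716 in WT and 5447, 5925 and 4000 in GOF (log2 difference -1.49 with SE 0.15, adjusted p = 1.04e-05). D, a Sox factor gene, had a log2 change of -1.44, and nerfin-1 of -1.09. Genes of mature neurons and synapses fell for 6 of 23 members (26.1%, against 20.1% of all genes), with a median of -0.06 beside -0.04 for all genes. elav, the marker of all neurons, was lower (-1.38, with -1.63 to -0.997 when single arrays were left out). Its mean was 9407.7 in WT, 3773.7 in GOF and 4631 in LOF, so a low elav level was not particular to GOF.

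Glial genes fell for 10 of 14 members, among them wrapper (-0.77) and the transporter gene ine (-0.71). The sum of both neuronal markers was 20455 to 24380 in WT and 9419 to 11521 in GOF, and that of both glial markers 5902 to 7191 and 2710 to 3386. Axon guidance genes fell for 10 of 20 members, a count that was 5 without WT replicate 3.

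Genes of mesoderm and muscle followed with smaller changes. Regulators of heart, gut muscle and body muscle fell for 13 of 22 members, among them the heart gene Hand (-0.64), ap (-0.65) and zfh1 (-0.89, with -1.06 to -0.70 when single arrays were left out). Genes of the sarcomere and of muscle fusion fell for 8 of 22 members, among them rols, which acts in fusion (-0.88), kon (-0.85), Mlp84B (-0.79) and Actn (-0.75). The sarcomere list lay 0.54 and 0.49 below the WT mean on GOF replicates 1 and 2 and 0.14 below it on replicate 3, and the count of fallers was 5 under several alternatives.

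Hox genes and their cofactors, which give segments their identity, fell for 7 of 8 members, among them Scr (-0.84), tsh (-0.62) and pb (-0.60). With the 40% of genes of lowest mean left out the fallers numbered 3. In gut, fat body and Malpighian tubule 9 of 21 genes fell, among them the lipoprotein gene Apoltp (-1.03) and GATAe of the midgut (-0.86), and 1 rose, the digestive enzyme gene Amy-d (1.53).

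Genes of the ecdysone response fell for 11 of 26 members (42.3%) and rose for 2, with a median of -0.29. The nuclear receptor genes Hr4, Hr78 (-1.19) and Hr3 (-1.24) were lower, and a second, dimmer probe set of Hr3 read 386.3 on average in WT and 429.3 in GOF (adjusted p over probe sets 0.353). ftz-f1, a receptor that follows the hormone pulse and is also a maternal product, read 63, 72 and 60 in WT and 683, 1362 and 1878 in GOF (log2 difference 4.20 with SE 0.28, adjusted p = 4.81e-07). The GOF arrays differed among themselves, with replicate 1 lowest, but all lay far above WT.

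A few lists gave few or no calls. Of 125 receptors of smell and taste 2 rose and 2 fell, with a median of 0.00 and a median WT intensity of 123, close to the dim end of the arrays. Of 15 genes of adult follicle cells and 12 genes of the late embryo and larval cuticle 0 were called in either direction. After cyclic loess these counts included 1 and 2 risers. The summed level of the 3 measured markers of the late cuticle stage was 877 to 1098 in WT and 884 to 1006 in GOF.

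Summed markers of 7 tissues were lower in GOF. Many of these markers are also among the fallers described above, so the sums are a description and no independent evidence. For 4 epidermal markers the sum was 6670 to 7971 in WT, 2891 to 3254 in GOF and 5715 to 6899 in LOF, and for the single tracheal marker measured it was 1011 to 1180, 561 to 705 and 861 to 931. All 17 tissue markers measured were lower in GOF. The part that a smaller share of these tissues in the embryo may have in the falls was not tested.

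**Figure D5:**
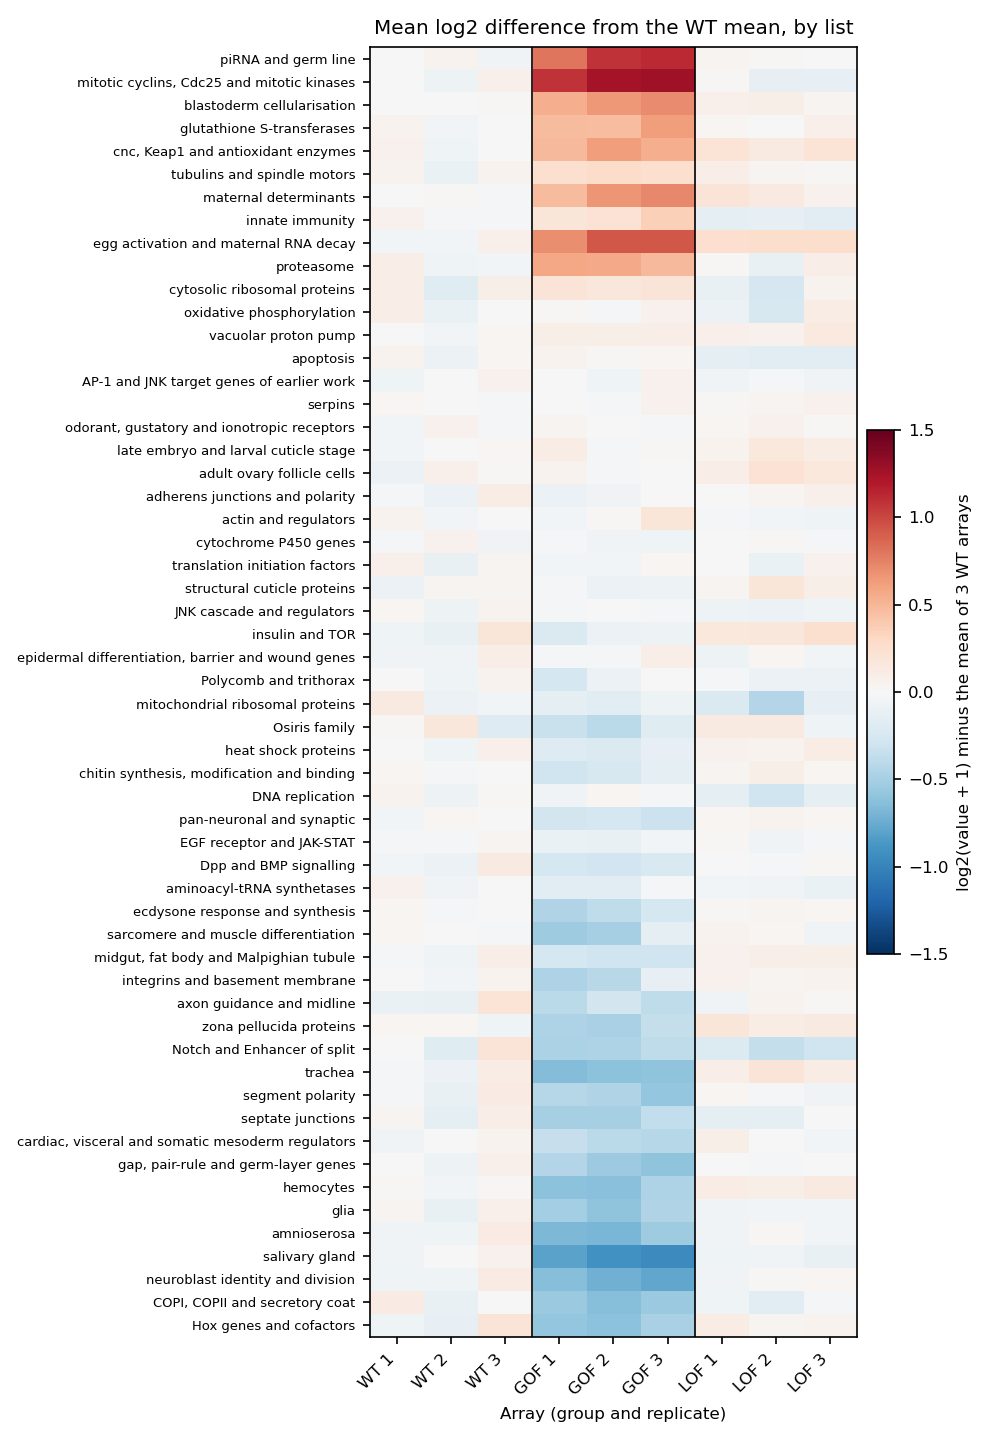
Colours give, for each gene list and each of the 9 arrays, the mean difference of log2(value + 1) from the mean of the WT arrays, from blue (lower) to red (higher) on a scale of 1.5 either way. The maternal, piRNA and mitotic lists are red on all 3 GOF columns and least raised on GOF replicate 1 (0.48, 0.80 and 1.09), whereas several lists near 0 differ in sign among the GOF columns. For the maternal determinants the medians on GOF replicates 1, 2 and 3 were only 0.049, 0.029 and 0.001, so the colour does not stand for a rise of the whole list.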

How the data were processed

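RNA of whole embryos was measured on 9 single-colour Affymetrix arrays, 3 per genotype, and the labels call the RNA samples independent. The authors deposited linear intensities in whole numbers for 14010 probe sets, and per the submitters' processing notes RMA produced them. The sources used here give neither the RMA settings nor the base used to leave the log scale. For arrays, their number limits the precision (median SE of a log2 change 0.11). Probe sets were named through the platform annotation table. It gives 1 gene for 12443 sets, several for 327 and none for 1196, and 44 sets are controls. Symbols were checked by gene number, and 49 symbols without a match were kept as they stood. Where a gene had more than 1 probe set (1209 genes), the set with the highest mean of log2(value + 1) over the 9 arrays stood for it, which left 10844 genes. No filter on low values was applied.

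Values were tested as log2(value + 1) with limma 3.58.1 (lmFit and eBayes, R 4.3.3, tables in pandas 2.3.3 under Python 3.11.15) over all 9 arrays, two-sided, with Benjamini-Hochberg adjustment over all genes and a threshold of 0.05. The fit had 6 residual and 5.39 prior degrees of freedom. Fold changes are on the log2(value + 1) scale, which understates those of the dimmest genes. The fit was tested on simulated data. Sequences are not printed.

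Members and the 56 gene lists were chosen with earlier results of these data known. By the naming rule the text draws examples from hep, puc, dpp and scaf, the 15 largest named changes and 4 with only a number in each direction whose groups do not overlap, the 5 smallest adjusted p and the 5 brightest genes changed at least 2-fold in each direction, the 5 changed genes with the largest GOF spread, and up to 4 changed members per list and direction with the smallest adjusted p. Genes named outside it are marked as such. Of 1826 listed genes 1414 were measured. Alternatives were natural logs, a pseudocount of 32, leaving out the lowest 40% of genes, GOF and WT arrays only, cyclic loess, quantile normalization, other rules for the probe set, eBayes with trend and robust, the replicate number as a block, and leaving out each array.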

Additional observations from a re-analysis of the deposited data

Results flagged for a closer look

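Probe sets that the annotation table leaves without a gene name stood outside the comparison of genes, and they too carried a difference between GOF and WT. Of 1196 such sets, 358 passed an adjusted p of 0.05 in limma over all probe sets (29.9%), 145 higher and 213 lower, with 56 rises and 32 falls of at least 2-fold under base 2. Of 327 sets assigned to several genes 40 were higher and 39 lower (24.2%), and of 44 control sets 0 changed. The set 143410_at read 1050, 1059 and 1042 in WT and 34890, 36528 and 31337 in GOF (log2 change 5.02, adjusted p = 1.11e-10), a rise as steep as those of bcd and CG15098. The set 143303_at read 2520, 1947 and 2199 in WT, 384, 465 and 419 in GOF and 422, 406 and 456 in LOF (GOF minus WT -2.39, adjusted p = 7.97e-08).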

How the results depend on the processing

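The count of 3980 changed genes ran from 3438 to 3912 when single arrays were left out, with 1618 to 1781 higher and 1820 to 2153 lower. It was 3659 with GOF and WT arrays only and 3315 of 6506 genes without the lowest 40%. After cyclic loess 54.2% of the calls were higher (2074 higher, 1750 lower), against 45.3% in the deposited scaling and 42.6% to 47.4% under the other alternatives. At least 2-fold changes numbered 895, and 877 to 987 when single arrays were left out (647 to 784 higher, 187 to 270 lower). On a natural log scale they numbered 394, with 355 higher and 39 lower, since every change shrinks by the same factor. Of 338 named genes, 298 differed between GOF and LOF, and 281 to 299 when single arrays were left out. Nearly all named genes were chosen among those changed between GOF and WT, so this count is no independent result. Over all genes 37.1% differed between GOF and LOF. Replicate numbers did not pair the arrays: the deviations of same-numbered GOF and WT arrays correlated at -0.089, -0.017 and 0.134, not every array correlated best with its own number, and the replicate block gave 3993 calls (1795 higher, 2198 lower). Of 337 named genes past the threshold, 300 kept call and direction in every one of the 19 alternatives that gave them a value (the filter on low values drops dim genes), and 0 changed direction. Over the gene lists 109 counts moved by more than 1.5 times and 2019 did not. Counts of insulin and TOR fallers (4) went to 7 without GOF replicate 3, of oxidative phosphorylation fallers (6) to 12 after quantile normalization, and of P450 fallers (10) to 6 without the lowest 40% of genes; the cause was not tested. Dim probe sets limit what can be seen, since falls of genes near the lowest value of 29 cannot be measured.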
